A study of Mus musculus with 4 samples.

Results

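The interferon-stimulated gene module described here is a list of 43 genes, given by name, that interferons induce in many mouse cells. Of these, 41 matched a symbol among the 32285 genes of the count tables; Mx1 and Mx2 matched no symbol and were not analysed here. The genes were followed in 4 single-cell RNA sequencing samples of CD45+ leukocytes from the colonic lamina propria of C57BL/6 mice with colitis. The mice, 10 weeks old by the sample labels, drank water with 2% dextran sulfate sodium (DSS), a polymer toxic to the lining of the colon, for 7 days. Colons were collected on day 8, and those of 3 mice were mixed into each sample. The study used AhR-/- mice, which lack the aryl hydrocarbon receptor in all tissues, and AhR+/+ littermates. The labels number the samples 1 to 4 and give DSS as the treatment of all of them but no genotype. Each sample is therefore reported on its own, with no comparison between genotypes and no test, since cells are not replicates. Mice without DSS were not analysed here, so no level below can be set against a healthy colon.

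Interferons are secreted proteins that warn cells of infection or damage. Type I interferons (interferon alpha and beta) signal through the receptor IFNAR to transcription factors that bind the interferon-stimulated response element in promoters. Interferon gamma, made mainly by T cells and innate lymphocytes, signals through the receptor IFNGR to factors that bind the gamma-activated site. To hold these apart, the members were read in a core list of 22 genes typical of the type I response, 20 of them analysed, and in an IRG list of 6 genes typical of interferon gamma. The IRG list holds the transcription factor Irf1 and the immunity-related GTPases Ifi47, Irgm1, Irgm2, Igtp and Iigp1, which act on membranes around intracellular microbes. In the gut such genes are known to be active without infection, because of the microbiota, and to be induced further in inflammation.

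Promoter windows were available for 33 of the 41 analysed members, in the RefSeq table of build GRCm38.p6, covering 250 bases before to 50 bases after the first transcribed base. Dhx58, Ifi27l2a, Iigp1, Oas2, Parp14, Rtp4, Usp18 and Zbp1 had none. The shared part of the interferon-stimulated response element, GAAA and GAAA with any 2 bases between them, was searched on both strands. It stood in a window of 18 of the 33 members (54.5%), against 3.99% of all 27025 genes with a window. Among other interferon-induced genes that are no members, 28 of 59 held it (47.5%). The shared part of the gamma-activated site, TTC and GAA with any 3 bases between them, stood in windows of 11 of the 33 members (33.3%) against 9.55% of all genes. It was found for 3 of 5 IRG list members and 2 of 15 core list members. In Bst2 and Ifitm3 the 2 motifs overlapped.

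The following stretches show where these motifs stand in the 4 core list members with the most molecules counted whose motif precedes the transcribed part, and in Irf1 and Igtp of the IRG list. Each is printed 5′ to 3′ on the strand of the gene, with up to 35 bases on either side. Capitals mark the letters of the response element on either strand, and in Irf1 those of the gamma-activated site.
Isg15, chr4:156200840-156200919, minus strand: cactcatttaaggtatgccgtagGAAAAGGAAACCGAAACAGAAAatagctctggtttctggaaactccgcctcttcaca
Rsad2, chr12:26456528-26456607, minus strand: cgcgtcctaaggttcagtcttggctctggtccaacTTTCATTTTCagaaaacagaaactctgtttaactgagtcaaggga
Oas3, chr5:120777690-120777769, minus strand: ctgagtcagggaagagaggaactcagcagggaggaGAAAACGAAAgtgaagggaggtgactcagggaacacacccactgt
Ifit1, chr19:34640769-34640848, plus strand: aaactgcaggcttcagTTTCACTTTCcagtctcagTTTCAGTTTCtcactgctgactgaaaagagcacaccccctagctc
Irf1, chr11:53769889-53769967, plus strand: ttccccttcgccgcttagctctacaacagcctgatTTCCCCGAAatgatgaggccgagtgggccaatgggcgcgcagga
Igtp, chr11:58199487-58199555, plus strand: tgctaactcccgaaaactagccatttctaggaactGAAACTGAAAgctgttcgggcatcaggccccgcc
In Isg15 the capitals are 3 overlapping matches, and in Ifit1 they are 2 separate ones on the other strand. Igtp also holds a match to the gamma-activated site, just before its capitals and left in small letters. A match is a description of letters in a window and not evidence of binding. By their positions in GENCODE M21, 10 members lie on chromosome 11, among them Irf1 and the GTPases Irgm1, Ifi47, Igtp and Irgm2. The Oas genes and the Oasl genes lie at separate places on chromosome 5, and the Ifit genes lie on chromosome 19. Igtp and Irgm2 overlap by 7974 bases on the same strand, so their counts cannot be fully told apart, and neither can those of the near-identical Ifit3 and Ifit3b. Ifi47 shares 20388 bases with the gene Olfr56 on the same strand, so its counts carry a like limit.

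After filtering, 39550 of 45229 cells were kept, between 7539 and 11824 per sample, with a median of 5633.5 to 7084 unique molecular identifiers (UMIs, each 1 captured transcript molecule) per cell in the 4 samples. Cells were placed into classes by marker genes that include no member of the module. A class was given to 28473 cells (72.0%), 9618 (24.3%) carried markers of more than 1 class and stayed mixed, and 1459 had too few markers. The same markers placed the cells, so their levels by class describe the placement and are no independent check of it. All 7 B-like markers and all 7 T-like markers were highest in their own class in every sample, and so were 7 of 8 neutrophil-like and 9 of 12 monocyte-macrophage-like markers. In the innate lymphocyte (ILC-NK-like) class only 5 of 10 were. Fibroblast-like, endothelial-like and epithelial-like cells were present despite the CD45 selection, and all 6 markers of each list were highest in their own class. Any pair of samples shared 23 to 49 cell barcodes, at most 0.423% of the smaller sample. Levels are UMIs of a gene or list per 1000000 (CPM) or per 10000 UMIs of a class in a sample, and they do not compare genes of different length. Intervals are 95% exact Poisson or binomial intervals and cover counting error only.

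The summed level of the module was higher in myeloid cells than in lymphocytes in all 4 samples. In monocyte-macrophage-like cells the 41 members made up 65.2, 38.9, 44.4 and 35.6 of every 10000 UMIs in samples 1 to 4. In B-like cells they made up 20.95, 13.9, 15.6 and 12.6 per 10000. The values of the classes did not overlap, and within a sample the monocyte-macrophage-like level was 2.79 to 3.11 times the B-like level. The neutrophil-like level was 69.2, 33.3, 33.2 and 28.1 per 10000, and the T-like level was 25.2, 13.5, 19.8 and 16.2. In each of these classes sample 1 stood highest.

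Much of this sum came from few genes. Samhd1, a phosphohydrolase that depletes the nucleotides viruses need, and Ifitm3, a membrane protein that blocks virus entry, together gave 41.6% to 57.1% of the module's UMIs in monocyte-macrophage-like cells and 46.5% to 53.3% in neutrophil-like cells. The core list, which holds neither, separated the classes further. In monocyte-macrophage-like cells it stood at 10.9, 8.22, 12.3 and 12.8 per 10000 in samples 1 to 4, against 1.96, 1.12, 2.15 and 1.09 in B-like cells. Here sample 4 was the highest and sample 2 the lowest of the monocyte-macrophage-like values, unlike in the whole module. In neutrophil-like cells the core list stood at 16.4 in sample 1 and at 5.77, 6.77 and 4.70 in the others. Neutrophil-like cells thus exceeded monocyte-macrophage-like cells only in sample 1.

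Genes of other cells set a measure of carried-over RNA in lymphocytes. The complement gene C1qa, made by macrophages, was present in B-like cells at 1.06% to 1.42% of its monocyte-macrophage-like level, and S100a8, made by neutrophils, at 0.383% to 3.62% of its neutrophil-like level. Over the same 4 samples the core list in B-like cells stood at 8.53% to 17.98% of its monocyte-macrophage-like level. The share of the core signal in B-like cells that came from other cells was not tested.

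The IRG list followed another order. In monocyte-macrophage-like cells it stood at 3.53, 1.33, 1.88 and 1.21 per 10000, and in B-like cells at 2.88, 1.41, 1.35 and 1.34. The ratio of the classes was 1.23, 0.944, 1.39 and 0.901 in samples 1 to 4, so neither class was higher throughout, and leaving out sample 1 or sample 3 turned the median ratio from 1.09 to 0.944. Irf1 gave 72.1% to 82.7% of the list's UMIs in B-like cells and 38.6% to 54.9% in monocyte-macrophage-like cells. The 5 GTPases without Irf1, summed after the values had been seen, were higher in monocyte-macrophage-like cells in all 4 samples, at 217, 65.3, 88.7 and 54.3 CPM against 49.9, 24.97, 37.6 and 26.7 in B-like cells. For the whole IRG list T-like cells stood at 3.78, 2.31, 2.92 and 2.62 per 10000, above the monocyte-macrophage-like cells of the same sample in all 4 samples. For the 5 GTPases alone T-like cells stood at 187, 87.2, 176 and 147 CPM, below the monocyte-macrophage-like cells in sample 1 only. The highest IRG levels belonged to non-leukocytes: fibroblast-like cells at 9.17, 3.26, 6.19 and 5.07 per 10000, and endothelial-like cells, read in samples 3 and 4 only, at 10.5 (95% interval 9.82 to 11.1) and 12.4 (11.3 to 13.5).

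**Figure D1:**
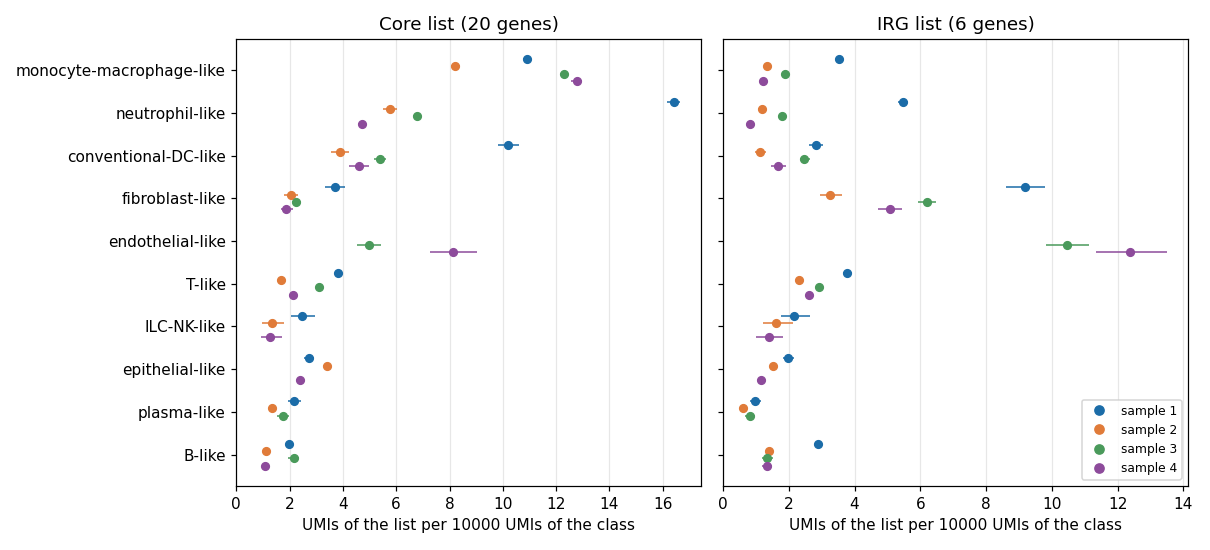
UMIs of the core list (left) and of the IRG list (right) per 10000 UMIs of each cell class, 1 point per sample with at least 50 cells of the class, with 95% exact Poisson intervals. Core levels are highest in monocyte-macrophage-like cells, and in sample 1 in neutrophil-like cells, while IRG levels are highest in fibroblast-like and endothelial-like cells.

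Members taken 1 by 1 were compared over the 6 classes that reached 50 cells in each sample. A member was called for a class when it was highest there in all 4 samples. Of 39 members with at least 10 CPM in a class, 7 were called for neutrophil-like cells (background 6.39% of 11829 genes), 6 for monocyte-macrophage-like cells (4.79%), 3 for fibroblast-like cells (18.4%) and 1 for B-like cells (14.1%). None was called for T-like (9.29%) or conventional-dendritic-cell-like (cDC-like) cells (5.22%). Over all 41 members, 24 were highest in no single class throughout.

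The 3 members listed as nucleic acid sensors, Ifih1, Dhx58 and Zbp1, were each highest in monocyte-macrophage-like cells in every sample. Ifih1 encodes MDA5, a sensor of long double-stranded RNA, and stood at 133, 174, 229 and 353 CPM in samples 1 to 4, against 9.44 to 28.7 in B-like cells and 28.8 to 72.8 in neutrophil-like cells. Dhx58 encodes LGP2, a regulator of such sensors, and stood at 32.02, 20.4, 19.2 and 15.3 CPM. Zbp1, a sensor of Z-form nucleic acids that can start cell death, stood at 153, 56.7, 62.2 and 39.3 CPM. The 3 sensors thus shared a class but not an order of samples: Ifih1 was lowest in sample 1, where Dhx58 and Zbp1 were highest.

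The oligoadenylate synthetases and their relatives, which sense double-stranded RNA or inhibit virus growth, were divided between the myeloid classes. Oas3 stood at 141, 91.1, 75.7 and 73.7 CPM in neutrophil-like cells and at 12.6 to 29.1 in monocyte-macrophage-like cells. Oas2 stood at 44.8, 23.7, 22.9 and 19.7 CPM in neutrophil-like cells and at 7.71 to 13.3 in monocyte-macrophage-like cells. Both were over 2-fold higher in neutrophil-like cells in every sample, with no overlap between the classes. Oasl2 was also highest in neutrophil-like cells, at 282, 78.8, 90.8 and 73.5 CPM, against 32.6 to 63.0 in monocyte-macrophage-like cells. Oasl1, known to restrain translation of Irf7, went the other way, at 222, 223, 372 and 379 CPM in monocyte-macrophage-like cells and 37.6 to 137 in neutrophil-like cells. Oas1a stood at 6.19 to 16.6 CPM in monocyte-macrophage-like cells, 5.46 to 19.7 in neutrophil-like cells and 1.81 to 3.15 in B-like cells.

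The IFIT genes, whose proteins bind foreign RNA, were low in most classes. Ifit1 stood at 7.76, 12.5, 15.2 and 18.6 CPM in monocyte-macrophage-like cells and at 55.9, 7.46, 20.98 and 10.8 in neutrophil-like cells. Ifit3 stood at 1.94, 5.13, 1.51 and 1.53 CPM in monocyte-macrophage-like cells and at 10.96, 2.27, 3.43 and 0.535 in neutrophil-like cells. Neutrophil-like cells of sample 1 were the highest of these 8 values for both genes. Rsad2, which encodes viperin, an enzyme that makes a chain-terminating nucleotide, stood at 61.7, 74.8, 202 and 242 CPM in monocyte-macrophage-like cells. Its neighbour Cmpk2, which supplies the nucleotide substrate, stood at 3.37 to 6.42 CPM there. Samples 3 and 4 were over 2-fold above samples 1 and 2 for Rsad2 and not for Cmpk2. Isg20, an RNA exonuclease, was highest in neutrophil-like cells at 66.2, 32.1, 27.5 and 20.3 CPM, and the kinase Eif2ak2 (PKR) ranged from 13.4 to 56.3 CPM over the monocyte-macrophage-like, neutrophil-like, T-like and B-like cells. Samhd1 stood at 1878, 820, 1407 and 869 CPM in monocyte-macrophage-like cells and at 313, 177, 320 and 238 in B-like cells, with no overlap.

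Isg15, a ubiquitin-like protein attached to new proteins and also secreted, stood at 219, 89.6, 138 and 88.5 CPM in monocyte-macrophage-like cells. In neutrophil-like cells it stood at 274, 114, 62.9 and 34.1, and in B-like cells at 4.97 to 15.3. Its removing enzyme Usp18, a brake on IFNAR signalling, was low in monocyte-macrophage-like cells at 4.54, 5.13, 3.54 and 2.65 CPM, and stood at 24.5, 4.54, 10.998 and 5.35 in neutrophil-like cells. Herc6, the mouse ligase for ISG15, stood at 28.5, 16.8, 22.7 and 18.4 CPM in monocyte-macrophage-like cells.

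The transcription factors of the module were spread over all classes. Irf1 stood at 136, 67.6, 98.8 and 66.2 CPM in monocyte-macrophage-like cells, at 238, 116, 97.2 and 107 in B-like cells and at 191, 144, 116 and 115 in T-like cells. Irf7, which amplifies the type I response, stood at 55.5, 29.8, 29.0 and 16.6 CPM in monocyte-macrophage-like cells, above the other 5 classes in every sample. Irf9 stood at 93.5, 39.2, 66.1 and 56.1 CPM in neutrophil-like cells and at 37.9, 30.1, 36.1 and 29.3 in monocyte-macrophage-like cells. Stat2 stood at 28.4, 18.5, 25.1 and 18.4 CPM in monocyte-macrophage-like cells and at 53.1, 12.97, 22.9 and 14.9 in neutrophil-like cells, so neither class was higher throughout.

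The GTPases were split by cell class. Iigp1 stood at 481, 81.8, 329 and 204 CPM in fibroblast-like cells and at 22.5, 14.5, 11.1 and 12.7 in monocyte-macrophage-like cells. Igtp stood at 63.2, 33.4, 66.9 and 56.1 CPM in T-like cells and at 35.045, 11.7, 9.77 and 7.71 in monocyte-macrophage-like cells. Irgm1, which also regulates autophagy, stood at 35.2, 6.81, 16.5 and 8.20 CPM in monocyte-macrophage-like cells and at 76.6, 9.40, 18.3 and 7.60 in neutrophil-like cells. In both myeloid classes sample 1 held the highest Irgm1 and Igtp values, over 2-fold above the other samples. Of the 8 members at least 2-fold higher in T-like than B-like cells in every sample (background 6.68%), 4 were the GTPases Ifi47, Irgm2, Igtp and Iigp1, and none was 2-fold lower (3.45%). Of the rest, Isg15, Ifit1 and Usp18 kept the call when B-like counts under 3 UMIs were taken as 3, while Ifit3b, at 0.0964 CPM in T-like cells of sample 4, lost it.

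Among the membrane proteins and remaining members, Ifitm3 was highest in fibroblast-like cells at 2589, 1804, 1348 and 865 CPM. It stood at 1850, 1134, 818 and 612 in monocyte-macrophage-like cells and at 117, 106, 144 and 64.6 in B-like cells. Ifi27l2a stood at 2018, 1667, 692 and 824 CPM in fibroblast-like cells and at 591, 397, 209 and 162 in monocyte-macrophage-like cells. Bst2 (tetherin), which holds budding viruses at the surface, was lower in neutrophil-like cells than in monocyte-macrophage-like cells, at 5.25 to 16.8 CPM against 66.3 to 130. Rtp4, a chaperone of receptors, stood at 179, 56.1, 69.7 and 48.1 CPM in neutrophil-like cells, but its gene shares 39791 bases with another gene on the same strand. Trim30a, a ubiquitin ligase, stood at 303, 175, 214 and 194 CPM in neutrophil-like cells and 118, 88.3, 84.8 and 73.7 in monocyte-macrophage-like cells. Parp14, an ADP-ribosyltransferase, stood at 111, 85.6, 126 and 122 CPM in monocyte-macrophage-like cells and at 222, 43.1, 70.7 and 41.3 in neutrophil-like cells. Sp100, a nuclear body protein, was the only member highest in B-like cells throughout, at 457, 377, 302 and 349 CPM against 99.1 to 131 in monocyte-macrophage-like cells. Slfn5 was highest in monocyte-macrophage-like cells at 87.4, 47.1, 50.7 and 40.3 CPM. Ifi35, Xaf1 and Slfn8 ranged from 8.998 to 43.7 CPM in those cells, and Ifi44, Ifit2 and Ifit3b from 0.189 to 11.7.

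**Figure D2:**
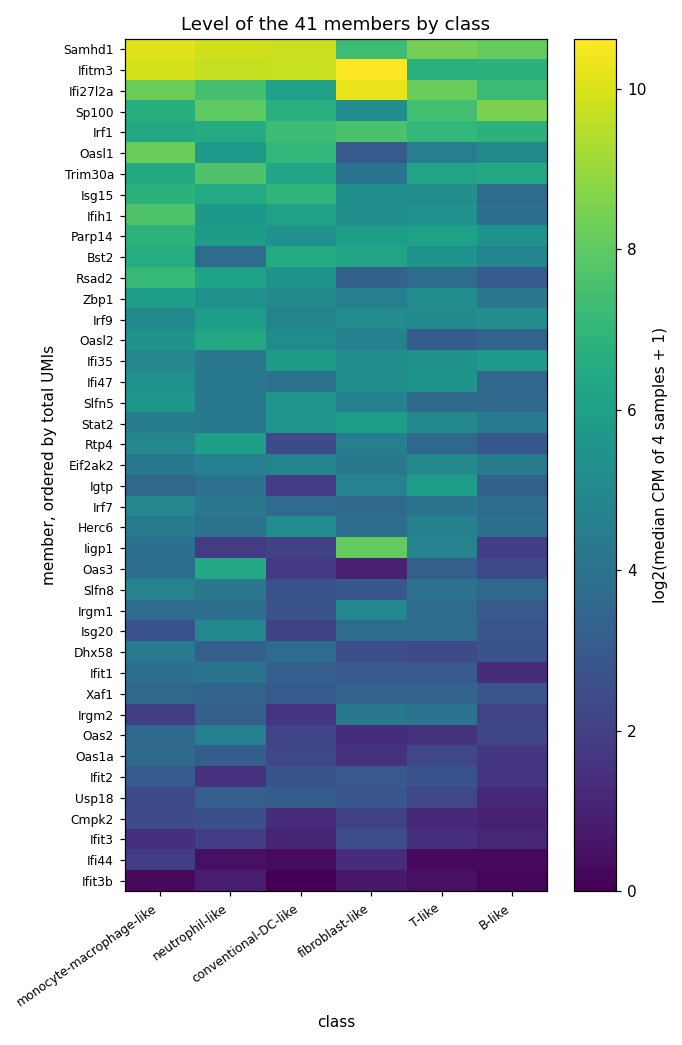
Median level of each analysed member over the 4 samples, as log2(CPM + 1), in the 6 classes that reached 50 cells in each sample. Rows are read across classes and not against each other. Oasl1, Ifih1 and Rsad2 are brightest in monocyte-macrophage-like cells, Oas3, Oasl2 and Rtp4 in neutrophil-like cells, Iigp1, Ifitm3 and Ifi27l2a in fibroblast-like cells and Sp100 in B-like cells.

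Counted over all members, 19 of 41 were at least 2-fold higher in monocyte-macrophage-like than in B-like cells in every sample, where 10.2% of all 23371 detected genes were. With B-like counts under 3 UMIs taken as 3, a rule added after the values had been seen, 18 members were (6.996% of genes), without Ifi44. Sp100 was the single member at least 2-fold lower (background 13.7%). Between neutrophil-like and B-like cells 16 members were higher (7.15%), 15 of them under the rule of 3 UMIs, without Ifit3b, and 1, Bst2, was lower (23.2%). Between neutrophil-like and monocyte-macrophage-like cells Isg20, Oas2, Oas3 and Sp100 were higher (4.85%), and Ifi44, Bst2 and Iigp1 were lower (16.3%). Within the monocyte-macrophage-like class, macrophage-like and monocyte-like cells differed at 2-fold in every sample in Ifit2 and Ifi44 only, both higher in macrophage-like cells (2.84%), and no member was lower (1.06%). Of 71 other interferon-induced genes that are no members, 16 were at least 2-fold higher and 8 at least 2-fold lower in monocyte-macrophage-like than in B-like cells, among the higher ones Ifi204, Ifitm2 and Oas1g, and among the lower ones Pml and Sp140.

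The samples differed in which members stood high within a class. In monocyte-macrophage-like cells 27 of the 34 members with at least 10 CPM in a sample were highest in sample 1, where 23.5% of all genes were, and 11 were at least 1.5-fold above every other sample there (1.36% of genes). These 11 were Isg15, Dhx58, Oas3, Irf7, Ifitm3, Zbp1, Ifi47, Irgm1, Igtp, Iigp1 and Slfn5. Ifi47 stood at 118 CPM in sample 1 (95% interval 114 to 123) and at 29.3, 48.4 and 24.1 in the others. Highest in sample 4 were 4 of the 34 members, Ifit1, Ifih1, Oasl1 and Rsad2. That is 11.8% of members, below the 23% of all genes. For Ifih1 sample 4 was at least 1.5-fold above every other sample (0.737%). Samples 3 and 4 both exceeded samples 1 and 2 for Ifih1, Oasl1, Rsad2 and Ifit1. Ifit2 was highest in sample 2 (30.2% of genes), and Parp14 and Slfn8 in sample 3 (23.4%).

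In neutrophil-like cells sample 1 stood apart more broadly. There 37 of 38 members were highest in sample 1 (13% of genes) and 29 were at least 1.5-fold above every other sample (2.15%). Rsad2 was the exception and was highest in sample 3 (26.6%), at 89.2 CPM in sample 1 and 94.1 in sample 3, with 46.7 and 51.4 in samples 2 and 4. Igtp stood at 67.7 CPM in sample 1 and at 13.6, 16.2 and 7.39 in the others. In T-like cells sample 1 was highest for 25 of 33 members (15.1%) and sample 3 for 6 (34.1%), and in B-like cells sample 1 was highest for 17 of 26 (15.8%) and sample 3 for 9 (31.3%). Ifih1, Oasl1 and Rsad2 were among those highest in sample 3 in both lymphocyte classes. B-like cells numbered only 300 in sample 3 and 344 in sample 4, against 2404 and 2473 in samples 1 and 2. In sample 3, 1 B-like cell held 13.3% of the core UMIs of its class. Median UMIs per cell of sample 1 were also the highest in both myeloid classes, at 8922.5 against 5732 to 6778 in monocyte-macrophage-like cells and 6081 against 3158 to 5181 in neutrophil-like cells, and the part of depth was not tested.

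**Figure D3:**
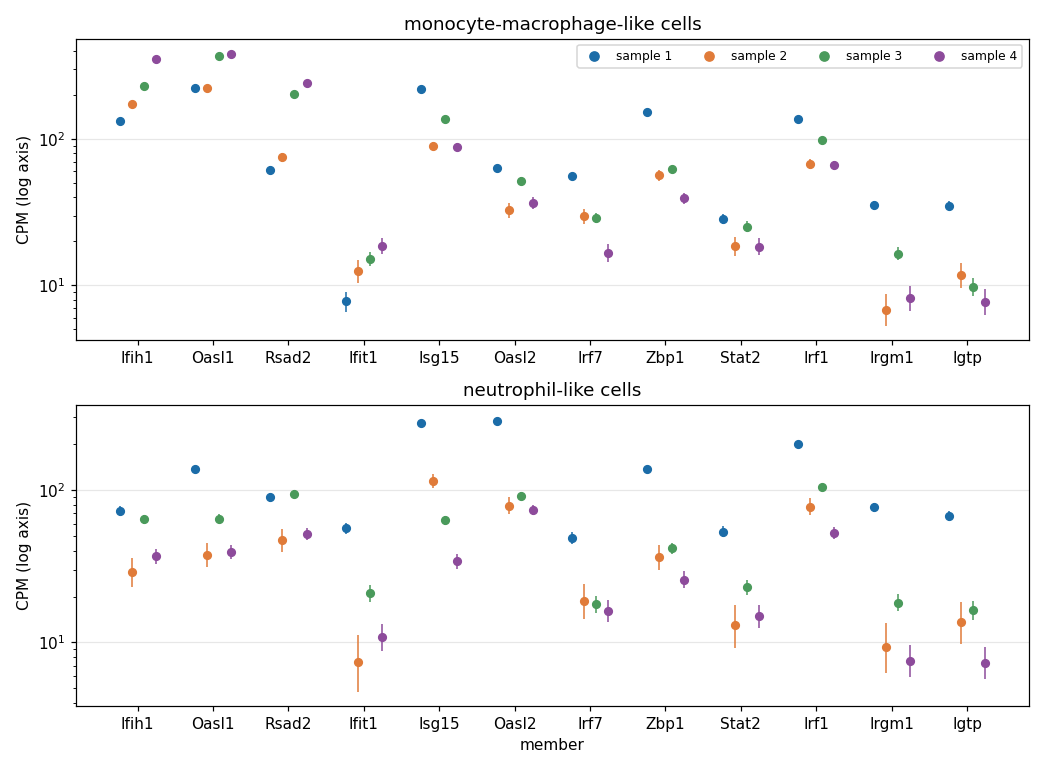
CPM of 12 members in monocyte-macrophage-like cells (top) and neutrophil-like cells (bottom) on a log axis, 1 point per sample with its 95% exact Poisson interval. In monocyte-macrophage-like cells Ifih1, Oasl1, Rsad2 and Ifit1 are highest in sample 4 and the other 8 members in sample 1, while in neutrophil-like cells all but Rsad2 are highest in sample 1.

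Core list signal was unevenly spread over the monocyte-macrophage-like cells. When each cell was thinned to 2000 UMIs, 12.7%, 8.25%, 15.9% and 16.4% of them held at least 5 core UMIs in samples 1 to 4, and 25.2% to 44.3% held none. The variance of the core count was 2.79, 4.49, 5.98 and 6.56 times its mean, where 1 is what counting alone gives. The 10% of cells with the most core UMIs held 35.9% to 49.2% of the core UMIs. Cells with exactly 4 core UMIs made up 3.56% to 6.45%, so the limit of 5 divides a continuous range and names no cell type. Without thinning the shares were 60.5%, 32.1%, 49.4% and 43.5%. In neutrophil-like cells, thinned to 1000 UMIs, 8.52%, 2.40%, 1.76% and 0.469% held at least 5. Monocyte-macrophage-like cells thinned to the same 1000 UMIs stood at 3.45%, 2.85%, 4.97% and 6.36%, lower than neutrophil-like cells in sample 1 and higher in the others. At 2000 UMIs neutrophil-like cells stood at 28.0%, 6.14%, 5.16% and 2.90%, again higher than monocyte-macrophage-like cells in sample 1 only. In B-like cells thinned to 2000 UMIs at most 0.692% held at least 5.

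Cells rich in the core list also held more of the IRG list. In monocyte-macrophage-like cells with at least 5 core UMIs the IRG list stood at 467, 210, 235 and 127 CPM, against 260, 91.8, 156 and 108 in cells with none. In neutrophil-like cells the values were 1022, 518, 440 and 427 CPM against 359, 99.4, 141 and 71.1, with only 18 and 7 core-rich cells in samples 2 and 4. The core-rich cells were higher in each sample of both classes.

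**Figure D4:**
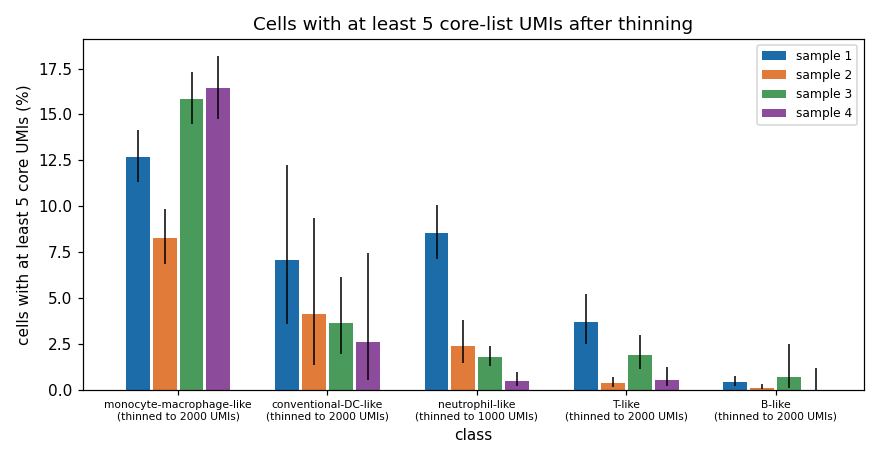
Percent of cells with at least 5 core list UMIs after thinning each cell to the number of UMIs given below its class, by sample, with 95% exact binomial intervals. Monocyte-macrophage-like cells range from 8.25% to 16.4%, and the neutrophil-like cells of sample 1 reach 8.52% at the lower number of 1000 UMIs.

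The chemokine Cxcl9, which draws T cells and is induced by interferon gamma, marked monocyte-macrophage-like cells with more of both lists. A Cxcl9 UMI was found in 25.9%, 10.2%, 8.92% and 4.60% of these cells in samples 1 to 4. In B-like cells, which should lack the gene, the share was 4.16%, 1.70%, 0.333% and 0.291%, at median depths of 4374 to 5438 UMIs against 5732 to 8922.5. In cells with the UMI the core list was 1.52, 1.31, 1.39 and 1.53 times as high as in cells without, and the IRG list 1.58, 1.44, 1.34 and 1.58 times. Irf1, however, was lower in cells with a Cxcl9 UMI in every sample, at 135, 63.3, 82.7 and 47.3 CPM against 137, 68.3, 101 and 67.3. The gap was small in samples 1 and 2. Of the 41 members, 20 were higher in every sample, against 7.66% of 15790 detected genes higher and 14.1% lower. Among these 20, Isg20 stood at 7.69 against 7.51 CPM in sample 1, and Ifit3b rested on 2, 4, 1 and 1 UMIs. Median UMIs per cell were 6425 to 10565 with and 5646 to 8437 without a Cxcl9 UMI, and the part of depth was not tested. The core ratio did not hold within each subset: among macrophage-like cells it was 0.890 in sample 2, and 0.943 in sample 3 after thinning.

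Cells with interferon beta transcripts held more of the core list. Of 21 interferon genes matched, 13 had no UMI in the 350286211 UMIs of the kept cells. All type I ligands together had 466 UMIs, of which Ifnb1 gave 78, 41, 129 and 176 in samples 1 to 4. Of the 350 Ifnb1 UMIs in classed cells, 261 were in monocyte-macrophage-like cells, at 1.14, 2.72, 4.25 and 9.72 CPM. Ifnb1 was thus lowest in sample 1 and highest in sample 4, as were Ifih1, Rsad2, Ifit1 and Oasl1 in these cells. The core list members Isg15, Ifi44, Dhx58, Oas1a, Oas2, Oas3, Oasl2, Irf7, Rtp4, Herc6 and Zbp1 were instead highest in sample 1 there. The summed core list was lowest in sample 2. A link between Ifnb1 and these orders was not tested. An Ifnb1 UMI was found in 16, 16, 45 and 77 monocyte-macrophage-like cells, 0.703% to 3.89% of the class. In B-like cells an Ifnb1 UMI was found in 0, 2, 1 and 0 cells. A count of 0, taken to allow up to 3, leaves at most 0.125% of cells with a UMI in sample 1 and 0.872% in sample 4, which is no limit on cells that express the gene. The core list stood at 32.3 (29.7 to 35.01), 30.4 (27.6 to 33.5), 23.1 (21.7 to 24.7) and 33.5 (31.9 to 35.2) per 10000 in these cells, 3.01, 3.85, 1.92 and 2.82 times its level in the cells without. The IRG list ratio was 0.887, 1.11, 1.10 and 1.03. Median UMIs per cell were 5777 to 11206 with and 5731.5 to 8910 without an Ifnb1 UMI.

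Few genes shared this pattern with Ifnb1. Only 8 of 6521 genes with at least 10 CPM in the cells without were at least 2-fold higher with an Ifnb1 UMI in all 4 samples (0.123%), and 2 of them were among the 27 members tested, Ifih1 and Rsad2. Ifih1 was 6.11, 3.72, 2.41 and 2.82 times as high, and Rsad2 6.76, 7.63, 2.43 and 5.65 times. Oasl1 was 4.04, 5.96, 2.10 and 1.98 times as high and missed the limit in sample 4. The chemokines Ccl4, Ccl7 and Ccl12, the GTPase Rnd3, Trim26 and Gm14636 were the other 6 genes. Isg15 was 1.62, 1.74, 1.07 and 1.33 times as high, and Irf7 was higher in sample 1 only. This comparison was added after the values had been seen, rests on 16 cells in samples 1 and 2, and has no test.

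**Figure D5:**
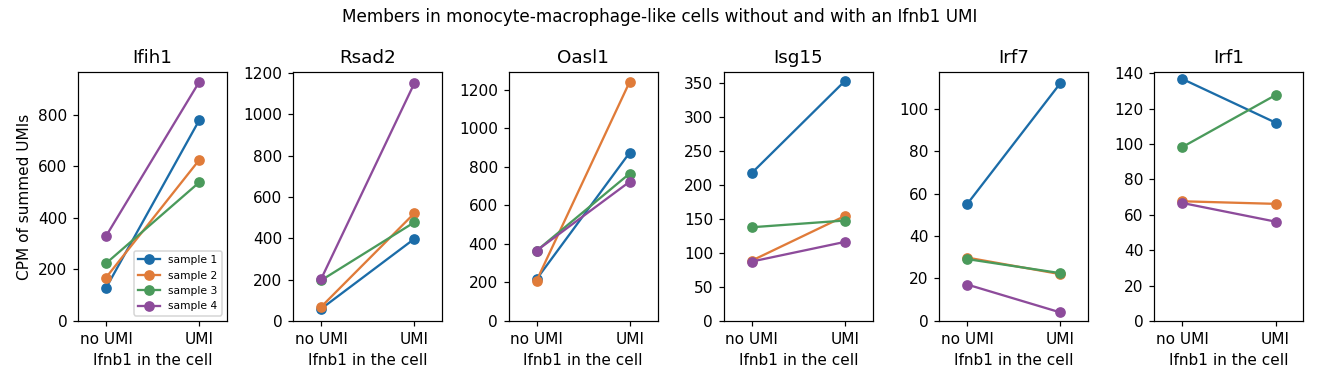
CPM of 6 members in monocyte-macrophage-like cells without (left) and with (right) an Ifnb1 UMI, 1 line per sample. Ifih1, Rsad2 and Oasl1 are higher with an Ifnb1 UMI in all 4 samples, Isg15 by at most 1.74 times, and Irf7 and Irf1 differ in direction between samples.

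A single cell in sample 1 held 50 of the 78 Ifnb1 UMIs of that sample. It fell in the mature-dendritic-cell-like subset, with 72 UMIs of Ccr7 and 50 of Ccl22 but none of Fscn1 or Cacnb3, which also mark that subset. It held no UMI of C1qa, Cd3e or Cd79a and 3 of S100a8. Of its 25531 UMIs, 1176 came from the core list, among them 358 of Rsad2, 246 of Isg15, 160 of Ifit1 and 116 of Oasl1, and 420 more came from the chemokine Cxcl10. Its doublet score, 0.0320, lay near the median of the sample, 0.0305. This cell gave 69.4% of the core UMIs of the 53 mature-dendritic-cell-like cells of sample 1, which stood at 26.0 per 10000 with it and 8.27 without it. In cDC-like cells the core list stood at 10.2, 3.88, 5.39 and 4.59 per 10000, and at 5.69 in sample 1 without that cell.

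Among classed cells, interferon gamma transcripts were mostly in T-like cells. Ifng had 4916, 2024, 1134 and 1319 UMIs in samples 1 to 4, and 3236 of the 4547 in classed cells were in T-like cells. A further 4680, 49.8% of all Ifng UMIs, were in mixed cells, whose type was not assigned. Its level was 240, 39.8, 31.3 and 33.8 CPM in T-like cells and 1044, 267 and 479 in ILC-NK-like cells of samples 1, 2 and 4. Sample 1 was thus the highest for Ifng, as it was for the IRG list and for Cxcl9 in monocyte-macrophage-like cells. It was also the highest for 27 of 34 members in those cells, and a link to Ifng was not tested. Of the receptor genes in monocyte-macrophage-like cells, Ifnar1 ranged from 106 to 126 CPM over the samples, Ifnar2 from 255 to 278 and Ifngr2 from 71.7 to 88.4. Ifngr1 varied more, from 127 to 203 CPM.

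The genes whose level followed the core list most closely over 36 profiles (a class in a sample with at least 50 cells) were sought among 8027 other genes. They were Lipa (Pearson r = 0.867), Il18bp (0.859), Atp6v0c (0.853), Trafd1 (0.852), Rab5c (0.848), Mir22hg (0.847), Atp6v1a (0.832), Pstpip2 (0.830), Sem1 (0.829) and Card19 (0.829). The profiles share libraries and depth, so these values describe likeness and carry no test. Lipa is the lysosomal acid lipase, Atp6v0c and Atp6v1a are parts of the proton pump of lysosomes, and Il18bp is a secreted inhibitor of interleukin 18.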

How the data were processed

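Single-cell RNA sequencing (10x Genomics) was performed by the authors on CD45+ bead-selected colonic lamina propria cells, and the values the authors deposited are whole-number counts of UMIs for each gene in each cell, not normalized. The file headers name Cell Ranger 7.0.1, while the submitters' processing notes list Cell Ranger 5.0.0, STAR, Seurat and build mm10. Total counts were 72509408 to 135516016 UMIs per sample. No column was left unused.

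Cells with at least 200 genes and under 20% mitochondrial UMIs were kept. The highest Scrublet scores (scanpy 1.11.5) were removed at 0.8% per 1000 cells. A marker counted in a cell when its share of the cell's UMIs exceeded its share of all UMIs of the sample. A cell took the class whose list had the largest share of markers counted, with at least 2 markers and every other list at most 0.5 of it, otherwise it was mixed. This rule replaced one that counted any UMI, which left more cells mixed, and it was chosen after marker detection, but no member, had been seen. Of the cells, 4266 were classed with a second list at 0.4 to 0.5 of the first, and 2497 were mixed at up to 0.6. Classes under 50 cells in a sample were not read there.

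The members and lists were chosen with earlier results of these data known. Named in full were the 10 members with the most UMIs, a preset set of well-known members, and the 10 genes most like the core list. UMIs were summed per class and sample. Background is the share of all genes under the same rule. No test was run, because the labels place no sample in a genotype group. Motifs were searched in RefSeq promoter windows, and positions were taken from GENCODE M21 on GRCm38 by gene identifier. Reads in genes that overlap (12 members) or have near-identical copies (Ifit3 with Ifit3b, Oas1a and Slfn8 with relatives) may be miscounted. The steps were tested on simulated data. Python 3.11.15, numpy 2.4.6, scipy 1.17.1, pandas 2.3.3, scikit-learn 1.9.0, igraph 0.11.9 and matplotlib 3.10.9 were used.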

Additional observations from a re-analysis of the deposited data

Results flagged for a closer look

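Cells that received no class, or that carried markers of more than 1 class, took no part in the comparisons, and both held core list UMIs. In the cells with too few markers the core list stood at 8.90, 3.31, 7.75 and 5.01 per 10000 UMIs in samples 1 to 4. In the mixed cells it stood at 7.08, 2.61, 6.38 and 4.49 per 10000. These levels lie above the B-like level of each sample and below the monocyte-macrophage-like level of each sample. Which cells the signal came from was not tested.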

How the results depend on the processing

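Over the alternatives, 60 of 75 values of the main results moved by less than the spread between samples or kept their count within 1.5 times, 13 moved further and 2 reversed. The median ratio of monocyte-macrophage-like to B-like cells for the module was 2.834, and became 3.373 with classes from Leiden clusters made without the members, 3.171 under a stricter marker gate, 2.678 without immunoglobulin, mitochondrial and ribosomal genes in the denominator, 1.802 without 5 preset members (Ifitm3, Samhd1, Ifi27l2a, Bst2 and Isg20) and 2.46 with each member weighted equally. For the core list the ratio was 6.545, and became 11.39 with Leiden clusters and 10.63 under the stricter gate. For the IRG list it was 1.086 and reversed to 0.9442 without sample 1 or without sample 3, and was 2.488 without Irf1, an alternative chosen after seeing the data. Leaving out 1 sample at a time gave 2.824 to 2.843 for the module, 5.721 to 7.37 for the core list, 0.9442 to 1.227 for the IRG list, and 19 to 23 members at least 2-fold higher. This last count could only stay or rise, because the rule asks for 2-fold in every sample. It is therefore no check of the rule, although its values are among the 60. The median share of core-rich neutrophil-like cells was 2.078%, and 6.538% with a limit of 3 UMIs. For monocyte-macrophage-like cells it was 14.27%, 30.18% with a limit of 3 UMIs, and 4.212% after thinning to 1000 UMIs. With Cxcl9 detection after thinning, the median ratios moved from 1.453 to 1.57 for the core list and from 1.51 to 1.671 for the IRG list. Leaving out the richest cell, an alternative chosen after seeing the data, moved the core level of sample 1 from 10.2 to 5.686 in cDC-like cells and from 25.96 to 8.271 in mature-dendritic-cell-like cells. The causes of these shifts were not tested. No paired analysis was possible because the labels place the samples in no groups.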

Other observations

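Other classes held the module at levels not described above. In fibroblast-like cells the members made up 28.4 to 66.4 per 10000 UMIs over the 4 samples. Their level was above that of monocyte-macrophage-like cells in samples 1 and 2 and below it in samples 3 and 4. In endothelial-like cells of samples 3 and 4 the members made up 52.6 (95% exact Poisson interval 51.2 to 54.1) and 55.9 (53.7 to 58.2) per 10000 UMIs, and the core list 4.97 and 8.11. In ILC-NK-like cells, the class with the highest Ifng level, the core list stood at 2.47, 1.33 and 1.26 per 10000 in samples 1, 2 and 4, and 1 cell of sample 1 held 37.9% of its core UMIs. In plasma-like cells of samples 1 to 3 it stood at 2.18, 1.33 and 1.75, and in epithelial-like cells of samples 1, 2 and 4 at 2.71, 3.40 and 2.40.

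Within the monocyte-macrophage-like class the 2 subsets did not keep one order over the samples. The core list stood at 11.4, 8.13, 11.7 and 10.4 per 10000 in monocyte-like cells and at 9.95, 8.26, 13.2 and 14.95 in macrophage-like cells, so monocyte-like cells were higher in sample 1 only. The IRG list stood at 4.58, 1.63, 2.19 and 1.26 in monocyte-like cells and at 2.12, 1.14, 1.47 and 1.15 in macrophage-like cells, higher in monocyte-like cells in all 4 samples. Its members did not all follow this order. Irf1 and Ifi47 stood in macrophage-like cells at 0.363 to 0.630 and 0.418 to 0.957 times their monocyte-like level. Iigp1 went the other way in every sample, at 1.83 to 9.69 times, and Irgm1, Irgm2 and Igtp changed direction between samples.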
